A study of Mus musculus with 2 samples.

Results

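Respiratory complexes I and II are the entry points for electrons into the mitochondrial respiratory chain. Their genes were taken as every listed symbol beginning with Nduf or with Sdha, Sdhb, Sdhc or Sdhd, without symbols marked -ps. This gave 51 of the 16614 genes listed, of which 42 are structural subunits or their relatives and 9 are assembly factors (Ndufaf and Sdhaf symbols). The series holds 2 RNA-seq libraries of C57BL/6 mouse bone marrow macrophages, 1 from wild-type (WT) and 1 from Foxo3 knockout (KO) mice. Both cultures were grown from femur and tibia marrow with M-CSF, a macrophage growth factor, for 3 days and then treated with RANKL, the cytokine that drives macrophages towards bone-resorbing osteoclasts, for 2 days. The labels used here name neither age, sex nor number of animals, nor how the knockout allele was made, and the series has no library without RANKL. With 1 library per genotype there is no replicate error, so every difference below describes these libraries and carries no p-value.

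Complex I takes electrons from NADH, passes them through flavin and iron-sulphur clusters to coenzyme Q, and pumps protons across the inner membrane. It has a peripheral arm, made of the NADH-oxidising N module and the coenzyme Q-reducing Q module, and a membrane arm whose core subunits are encoded in mitochondrial DNA. Around a conserved core lie many accessory subunits, and assembly factors help to build the complex without staying in it. Complex II is succinate dehydrogenase, which is also a citric acid cycle enzyme and pumps no protons. Osteoclasts are rich in mitochondria, and mitochondrial gene expression is known to increase as they form.

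Values were read as FPKM, a level per transcript length and library size, from the values themselves, since no label names the unit. Comparisons of level between genes rest on that reading. A pair of values is always given with the WT library first. The log2 ratio is log2(KO + 1) minus log2(WT + 1), and genes at 1 FPKM or more in either library, 10003 in number, are called measured. Foxo3 itself read 10.3 FPKM (WT) and 0.548 FPKM (KO), so that 5.33% remained. The macrophage genes Csf1r (697 and 695 FPKM) and Cd68 (1573 and 1546 FPKM) and the osteoclast gene Acp5 (7737 and 8636 FPKM) were abundant in both libraries. Csf1r and Cd68 were among the least changed macrophage markers, and 17 of 18 measured ones read lower in the KO library, as given below.

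Of the 51 genes 50 were measured, and 48 of them read higher in the KO library, against 57.6% of all measured genes. Most of these differences were small. All 41 measured structural subunits were higher, and their median log2 ratio was 0.15. Of the 9 assembly factors 7 were higher (median 0.19), and the median over all measured genes was 0.03. At least 1.1-fold higher on the log2 ratio scale were 29 structural subunits and 6 assembly factors, 35 of 50 in all, against 19.2% of all measured genes. None of the 50 reached 2-fold in either direction, a size reached by 0.32% of measured genes. None was 1.1-fold lower. Summed over the structural subunits the level was 8102 FPKM (WT) and 9111 FPKM (KO), 12.4% higher, while the sum over all measured genes was 1.87% higher.

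**Figure D1:**
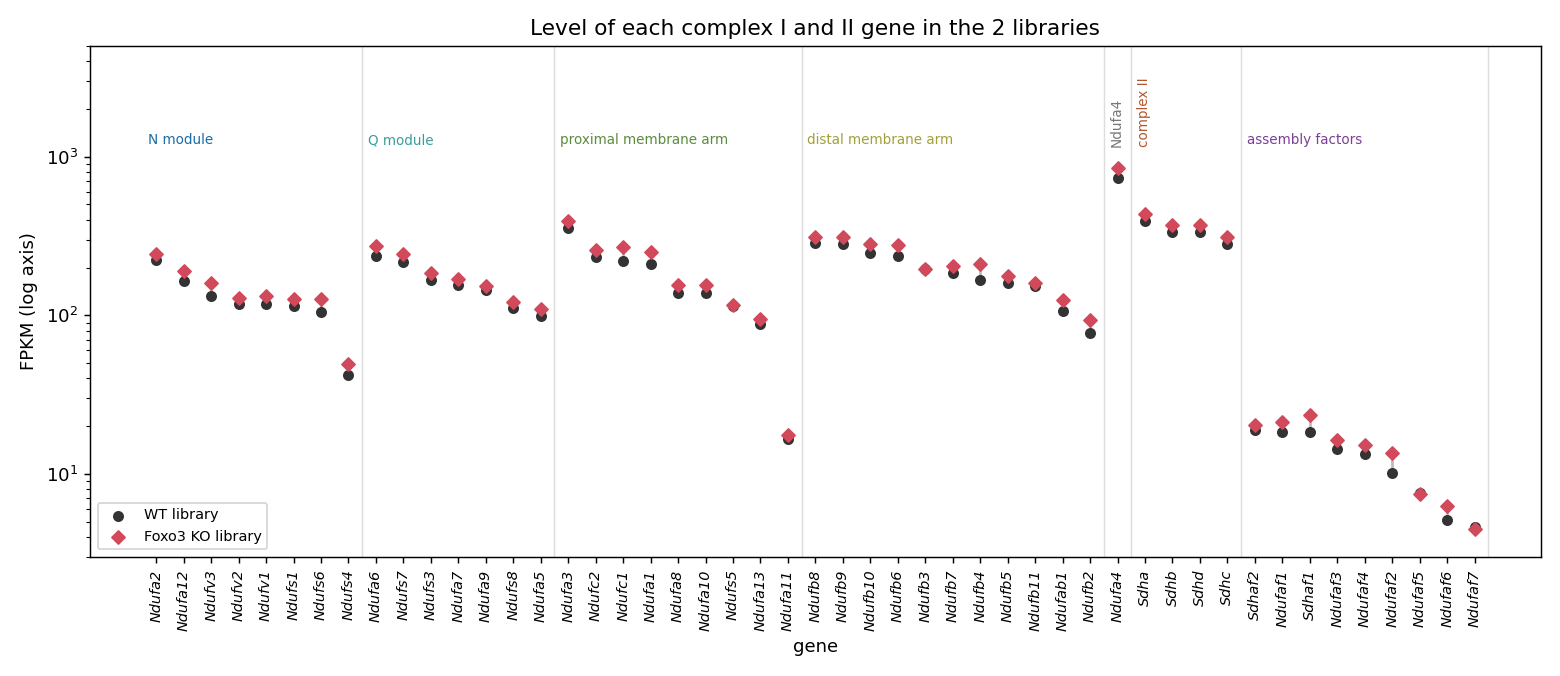
Level of 49 measured complex I and II genes in FPKM on a log axis, with the WT library as black circles and the Foxo3 KO library as red diamonds, grouped by module and ordered by WT level; each symbol is 1 library and there are no error bars. The structural subunits other than Ndufa11 lie above all 9 assembly factors in both libraries, and the KO symbol lies above the WT symbol for all but Ndufaf5 and Ndufaf7.

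The catalytic core of complex I was the more even part of it. Core subunits encoded in the nucleus carry the flavin and the iron-sulphur clusters or line the coenzyme Q site, and those described here were 8.88% to 13.3% higher in the KO library. Ndufv1, which holds the flavin that accepts electrons from NADH, read 117 FPKM (WT) and 133 FPKM (KO). Its partner Ndufv2 read 118 and 129 FPKM, and Ndufs1, the largest subunit of the N module, read 115 and 127 FPKM. These N module subunits thus lay close to one another in level in both libraries. In the Q module, Ndufs7 read 217 and 244 FPKM, Ndufs3 167 and 185 FPKM and Ndufs8 112 and 122 FPKM. Log2 ratios of these core subunits ran from 0.12 (Ndufv2) to 0.18 (Ndufv1).

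The 30 measured accessory subunits filed under Nduf symbols had nearly the same median log2 ratio, 0.16, against 0.15 for the core, but a wider range, from 0.0091 to 0.33. In the N module the highest level was that of Ndufa2, at 222 FPKM (WT) and 242 FPKM (KO), and the highest log2 ratio, 0.27, that of Ndufv3 (132 and 159 FPKM). Ndufs4, a subunit whose loss causes a Leigh-like disease in mice, was the least abundant of this module at 42.3 and 49.3 FPKM. In the Q module the ratio was lowest for Ndufa9, a subunit at the junction of the arms (145 and 153 FPKM, log2 ratio 0.07). Of the modules, the N module had a median log2 ratio of 0.19 over 8 genes, the Q module 0.15 over 8, the proximal membrane arm 0.16 over 9 and the distal membrane arm 0.16 over 11. These ranges overlapped throughout.

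Subunits of the membrane arm spanned the full range of the structural set. In the proximal part, Ndufa3 was the most abundant at 353 FPKM (WT) and 394 FPKM (KO). Ndufc1 had the highest ratio (221 and 270 FPKM, log2 ratio 0.29). Ndufs5 was nearly level, at 115 FPKM (WT) and 116 FPKM (KO) (0.0091). Ndufa11 stood apart in level, at 16.6 and 17.6 FPKM, the lowest of any measured structural subunit. In the distal part, Ndufb8 was the most abundant at 285 and 313 FPKM. Ndufb4 had the largest log2 ratio of the structural set, 0.33, with 168 FPKM (WT) and 211 FPKM (KO), and Ndufb3 was nearly level at 195 and 197 FPKM (0.016). Ndufab1, the acyl carrier protein of mitochondrial fatty acid synthesis that also sits in complex I, read 106 and 124 FPKM. Scaling on a trimmed mean or on the median gene turned the ratios of Ndufs5 and Ndufb3 to just below 0. Both genes have a near-identical copy in the annotation (BC002163 and Gm45930), as do Ndufb4 (Ndufb4c), Ndufs6 (Ndufs6b), Ndufab1, Ndufa12, Ndufb11 and Ndufs3, so reads of these 8 genes may be shared with their copies. Exons of 15 members overlap those of another named gene, among them Ndufa11 (Vmac), Ndufaf3 (Impdh2) and Sdhaf2 (Cpsf7), and whether counting used strand is unknown.

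Ndufa4 carries a complex I name but is now held to be a subunit of cytochrome oxidase. It was the most abundant of all members, at 739 FPKM (WT) and 850 FPKM (KO), with a log2 ratio of 0.20. Its relative Ndufa4l2, known as a gene induced by low oxygen, was the 1 member not measured: its listed values were 0.0401 FPKM (WT) and 0 (KO), so a fold cannot be formed.

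**Figure D2:**
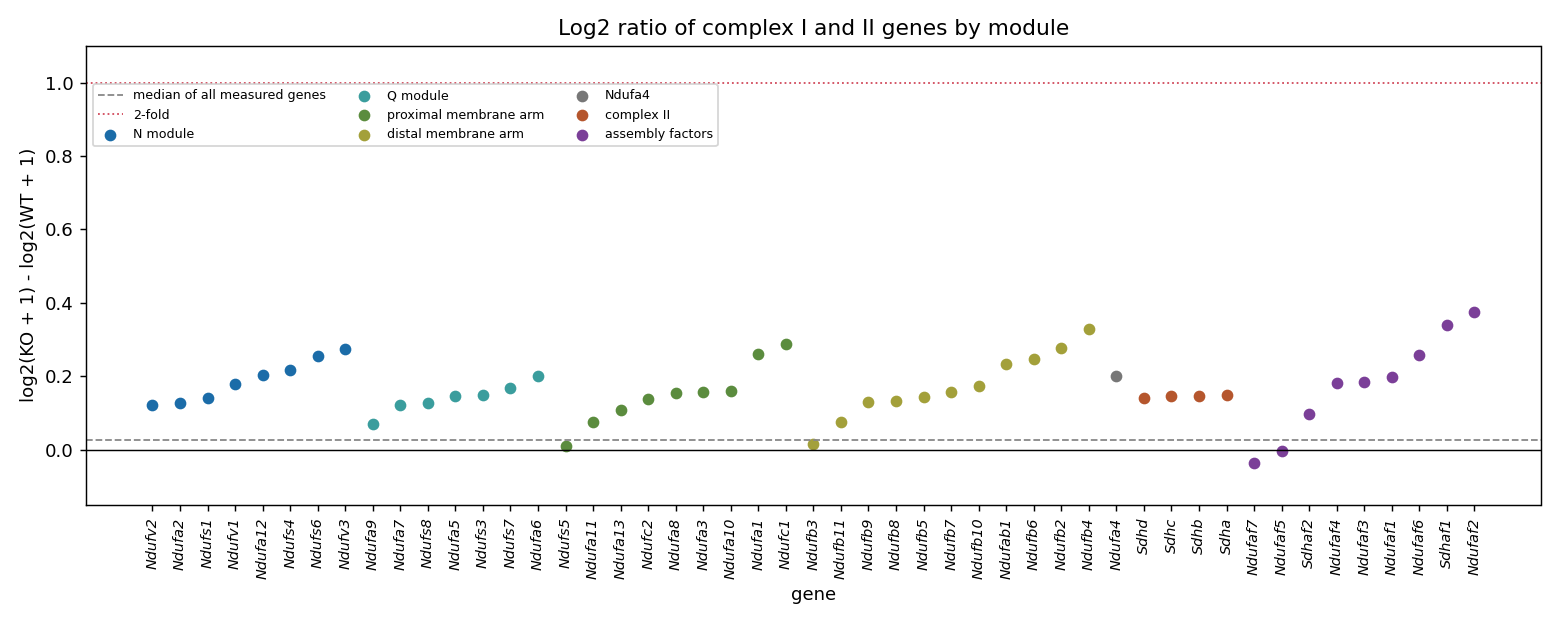
Log2 ratio, log2(KO + 1) minus log2(WT + 1) with FPKM values, of 49 measured genes by module, 1 point per gene, with lines at 0, at the median of all measured genes (dashed) and at 2-fold (dotted). All points lie far below 2-fold, the 4 complex II subunits share nearly the same ratio, and the 9 assembly factors span the widest range.

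The 4 subunits of complex II were the most even group. Sdha, the flavoprotein that oxidises succinate (chromosome 13, 74322254 to 74350280, GENCODE M21 on mm10), read 391 FPKM (WT) and 434 FPKM (KO). Sdhb, the iron-sulphur subunit (chromosome 4, 140961203 to 140979193), read 337 and 373 FPKM. The membrane anchors Sdhc (chromosome 1, 171127165 to 171150603) and Sdhd (chromosome 9, 50596357 to 50603812) read 283 and 313 FPKM and 336 and 370 FPKM. The 4 genes lie on different chromosomes, and their KO values were 10.3% to 10.9% above their WT values, with log2 ratios between 0.14 and 0.15. In both libraries the order of levels was Sdha, Sdhb, Sdhd, Sdhc, and Sdhb and Sdhd were nearly equal in level.

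Assembly factors were about an order of magnitude less abundant than the subunits they help to install. In the WT library they ran from 4.65 to 18.9 FPKM with a median of 13.3 FPKM, and the structural subunits from 16.6 to 739 FPKM with a median of 167 FPKM. In the KO library the medians were 15.2 and 191 FPKM. Complex I assembly genes with other symbols, described below, were higher in the WT library, with a median of 22.9 FPKM and a highest level of 48.9 FPKM. The 9 assembly factors overlapped the structural range only at Ndufa11, and Ndufs4 was the next structural gene above it. At such low levels 1 fragment is a larger share of a value.

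Of the 7 complex I assembly factors 5 were higher in the KO library and 2 were level or slightly lower. Ndufaf2, a relative of the subunit Ndufa12 that acts late in assembly, had the largest log2 ratio of all members, 0.38, with 10.2 FPKM (WT) and 13.5 FPKM (KO). Ndufaf3 and Ndufaf4, which act together on the Q module, read 14.3 and 16.4 FPKM and 13.3 and 15.2 FPKM, 14.6% and 14.5% higher in the KO library. Ndufaf5, which hydroxylates an arginine of Ndufs7, was level at 7.53 FPKM (WT) and 7.504 FPKM (KO). Ndufaf7, an arginine methyltransferase, read 4.65 and 4.50 FPKM (log2 ratio -0.04). Ndufaf5 and Ndufaf7 were the 2 measured members with a lower value in the KO library, with changes in FPKM of -0.386% and -3.12%. Ndufaf6 read 5.10 and 6.29 FPKM (0.26). Ndufaf1, which acts on the membrane arm, read 18.4 and 21.3 FPKM (0.20).

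For complex II, Sdhaf1, which helps to insert iron-sulphur clusters into Sdhb, read 18.3 FPKM (WT) and 23.4 FPKM (KO), a log2 ratio of 0.34. Sdhaf2, needed to attach the flavin to Sdha, read 18.9 and 20.2 FPKM (0.10). The file also lists Acn9, the older symbol of Sdhaf3 by the RefSeq gene table and so outside the symbol rule, at 6.00 and 6.999 FPKM (0.19).

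Structural subunits and assembly factors did not separate by their ratios. The difference of their medians, structural minus assembly, was -0.04, less than the range within either group. It was -0.0012 with a pseudocount of 5 and -0.07 with trends on transcript length and GC content removed. The width differed: the interquartile range of the log2 ratio was 0.13 to 0.20 for the structural subunits and 0.10 to 0.26 for the assembly factors. Measured genes with a mean from 3 to 30 FPKM had a range about as wide as the latter, -0.07 to 0.11. For those with a mean of 30 FPKM or more it was -0.04 to 0.12. Genes of like level gave lower shares. Among measured genes with a mean of 30 FPKM or more, 63.9% were above 0 and 19.6% at least 1.1-fold higher. Among those with a mean from 3 to 30 FPKM, the range of the assembly factors, the shares were 56.6% and 18%.

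**Figure D3:**
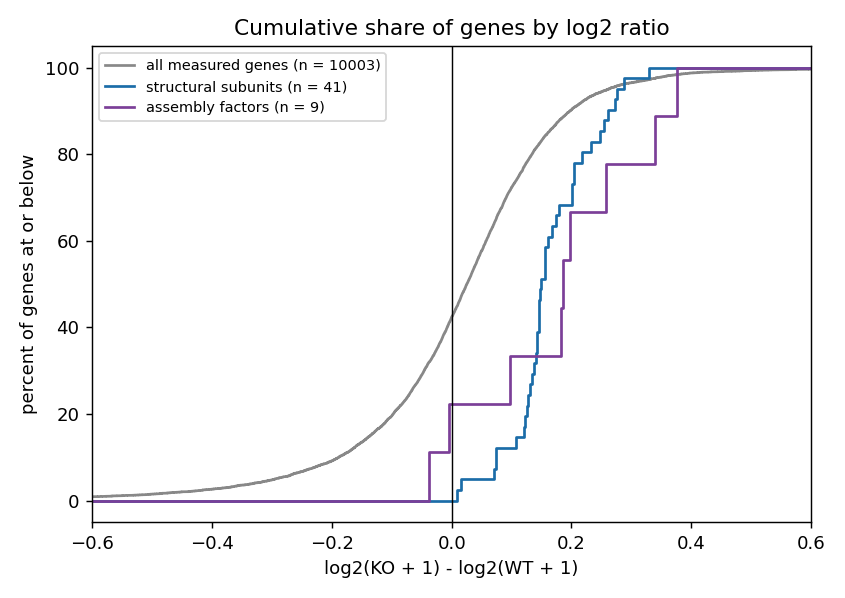
Cumulative percent of genes at or below each log2 ratio (KO over WT, FPKM with a pseudocount of 1) for all 10003 measured genes (grey), 41 structural subunits (blue) and 9 assembly factors (purple). The structural curve starts to the right of 0 and climbs over a narrow span, while the assembly factor curve starts just left of 0 and is wider.

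Transcript length moved with the ratio across the library and is given beside these counts, since most complex I transcripts are short. Among measured genes under 700 bases, 76.8% were above 0 with a median of 0.10, and the 13 structural subunits in that band had a median of 0.16. With a mean of 30 FPKM or more as well, nearer to the level of the subunits, 83.3% of genes in that band were above 0 with a median of 0.11, and 78.7% from 700 to 1200 bases, with a median of 0.08. From 700 to 1200 bases 72.5% of all genes were above 0 with a median of 0.08, and the median of 13 subunits was 0.15. From 1200 to 2000 bases all genes had a median of 0.05 and 9 subunits one of 0.18, and from 2000 to 4000 bases the medians were 0.03 and, over 5 subunits, 0.15. Ratios of the subunits thus did not decline over these bands as those of all genes did. With lowess trends on length and GC content removed, the median of the structural subunits was 0.10, that of the assembly factors 0.17, and 45 of the 50 genes were above 0. The share of all measured genes above 0 was not computed after this step.

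**Figure D4:**
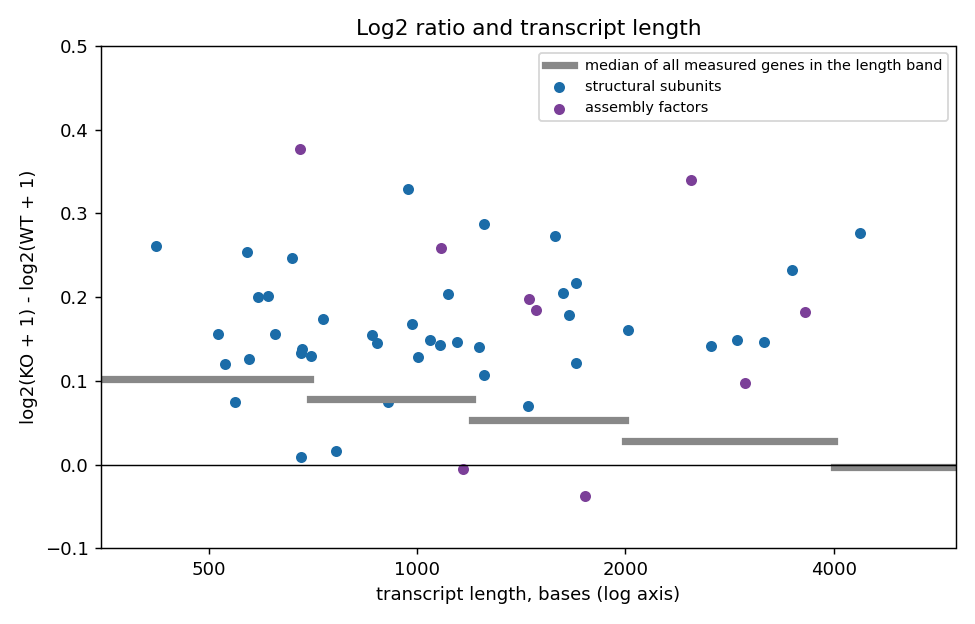
Log2 ratio (KO over WT) of the structural subunits (blue) and assembly factors (purple) against transcript length in bases on a log axis, with grey bars for the median of all measured genes in each length band. The grey bars step down from 0.10 for the shortest transcripts to just below 0 for the longest, and most subunits lie above the bar of their band.

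Promoter sequence was available in RefSeq (GRCm38.p6) for 44 of the 51 genes, as windows of 300 bases from 250 before to 50 after the transcription start. They were searched on both strands for sites of factors known to drive nuclear genes of mitochondrial proteins, and for a FoxO site. The NRF1 motif GCATGCGC was in 4 of 36 structural and 2 of 8 assembly factor genes, against 3.05% of all genes with a window. The motif CCGGAAG of ETS factors such as GABPA was in 6 and 3 genes against 9.93%, and the oestrogen-related receptor motif TNAAGGTCA in 2 and 0 against 1.43%. The YY1 motif AAGATGGCG was in 5 structural genes and 0 assembly factor genes, against 1.64%. Among measured genes alone the shares were 6.75% for NRF1, 22.1% for ETS, 0.89% for the oestrogen-related receptor and 4.09% for YY1. The FoxO motif GTAAACA was in 0 of 36 structural genes and in 1 assembly factor gene, Ndufaf1, against 4.05% of all genes and 2.95% of measured genes. A match is only a run of letters, and its absence says only that these letters are not in the window.

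The stretches below were chosen to show where these matches fall in genes described above: the pair of complex II genes with a match before the start, the structural gene with the largest ratio (Ndufb4), an accessory subunit with an NRF1 match, and assembly factors with NRF1 and FoxO matches. All are read 5′ to 3′ on the strand of the gene, with matches in capitals.
Sdhb, NRF1, chr4:140961192-140961249, plus strand: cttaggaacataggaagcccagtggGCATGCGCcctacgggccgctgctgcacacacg
Sdhd, ETS on the other strand, chr9:50603864-50603920, minus strand: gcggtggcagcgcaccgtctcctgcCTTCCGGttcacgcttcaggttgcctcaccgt
Ndufb4, oestrogen-related receptor, chr16:37654392-37654450, minus strand: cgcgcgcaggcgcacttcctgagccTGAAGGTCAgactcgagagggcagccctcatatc
Ndufa6, NRF1, chr15:82354342-82354399, minus strand: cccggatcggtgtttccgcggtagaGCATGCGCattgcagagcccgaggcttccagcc
Ndufaf4, NRF1 on both strands (overlapping), chr4:24897945-24898004, plus strand: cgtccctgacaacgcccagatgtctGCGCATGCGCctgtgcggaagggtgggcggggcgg
Ndufaf1, FoxO on the other strand and then ETS, chr2:119662835-119662930, minus strand: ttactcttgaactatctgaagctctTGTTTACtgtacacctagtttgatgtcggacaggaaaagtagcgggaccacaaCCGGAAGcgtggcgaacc

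The YY1 matches all lay after the start. All 5 (in Ndufa9, Ndufc1, Ndufs4, Ndufs6 and Ndufs7) began 22 to 35 bases after the start, and all 5 cover an annotated start codon, whose ATG is part of the motif. Ndufs7, an iron-sulphur subunit of the Q module, and Ndufs6, of the N module, are shown.
Ndufs7, chr10:80249463-80249491, plus strand: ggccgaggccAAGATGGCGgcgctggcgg
Ndufs6, chr13:73328433-73328459, minus strand: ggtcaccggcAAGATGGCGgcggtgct

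Enzymes upstream of complex I were also higher. All 17 measured genes of pyruvate dehydrogenase and the citric acid cycle were higher in the KO library, with a median log2 ratio of 0.20, beside 0.15 for the structural subunits, a difference not tested. Among them, Pdhb, a subunit of pyruvate dehydrogenase, read 223 FPKM (WT) and 266 FPKM (KO), and Dlat, of the same enzyme, 49.9 and 60.1 FPKM. Genes of other routes that bring electrons to coenzyme Q were mixed, with 5 of 7 higher, against 57.6% of all measured genes, and a median of 0.07. The electron transfer flavoprotein genes Etfa (124 and 139 FPKM) and Etfb (78.5 and 87.0 FPKM) were the farthest from 0 among the genes of this list at 10 FPKM or more.

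Genes that supply cofactors or further assembly steps were less uniform in direction than the structural subunits, all of which were higher. The counts below stand against 57.6% of all measured genes higher in the KO library. Of 11 other complex I assembly genes 10 were higher, with a median of 0.14, led by Aifm1 (39.7 FPKM (WT) and 47.5 FPKM (KO)) and Tmem126b, of the membrane arm assembly complex (22.9 and 27.0 FPKM). Of 16 iron-sulphur cluster assembly genes 13 were higher (median 0.09). The chaperone gene Hspa9 read 199 and 232 FPKM and the ferredoxin reductase gene Fdxr 14.3 and 16.4 FPKM. Of 13 genes of coenzyme Q synthesis or function 10 were higher (median 0.17). Adck3, a kinase-like gene of coenzyme Q synthesis also named Coq8a, had 155 FPKM (WT) and 199 FPKM (KO), and Coq10b 8.20 and 10.2 FPKM.

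Regulators of mitochondrial genes lay nearer to the median of all genes, with 9 of 13 higher, against 57.6% of all measured genes, and a median of 0.06. Esrra, an oestrogen-related receptor that drives respiratory genes with PGC-1 coactivators, read 48.03 FPKM (WT) and 56.0 FPKM (KO) (0.22), and Polrmt, the mitochondrial RNA polymerase, 12.6 and 14.3 FPKM (0.18). Named after their values were seen, Ppargc1b, the PGC-1β coactivator known from osteoclasts, read 22.6 and 23.8 FPKM, Nrf1 8.58 and 8.14 FPKM, and Gabpa 17.9 and 20.1 FPKM. The later steps of the chain had medians somewhat above that of the complex I and II subunits: 0.21 over 9 complex III genes, 0.21 over 10 complex IV genes and 0.17 over 16 genes of ATP synthase and its inhibitor, with 34 of those 35 higher. The farthest from 0 were Uqcrq (344 and 480 FPKM) and Uqcr10 (455 and 579 FPKM) in complex III, Cox8a (538 and 724 FPKM) and Cox6a1 (777 and 982 FPKM) in complex IV, and Atp5l (545 and 654 FPKM) and Atp5d (325 and 385 FPKM) in ATP synthase. Whether any of these lists differs from complexes I and II was not tested.

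**Figure D5:**
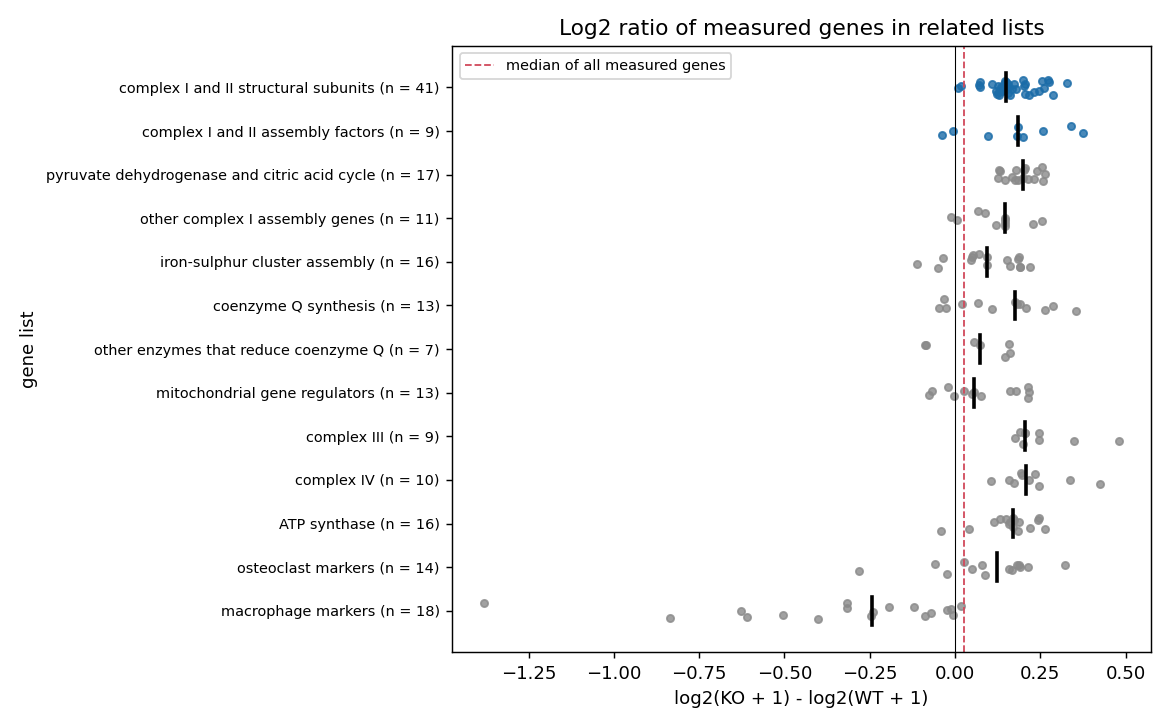
Log2 ratio (KO over WT) of every measured gene in the complex I and II sets (blue) and in related lists (grey), 1 point per gene, with a black bar at each median and a dashed line at the median of all measured genes. The medians of the respiratory and citric acid cycle lists lie right of the dashed line, with single genes such as Atpif1, Ndufs5 and Ndufb3 left of it, and most macrophage markers lie left of 0.

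Cell type markers also differed between the 2 libraries, in directions that depended on the list. Of 18 measured macrophage markers 17 were lower in KO cells (median -0.24), against 4240 of all 10003 measured genes. They summed to 12115 FPKM (WT) and 9814 FPKM (KO), with Cd36 at 84.7 and 31.9 FPKM and Fcgr3 at 187 and 104 FPKM. Of 14 osteoclast markers 11 were higher (median 0.12), against 57.6% of all measured genes and 63.9% of those with a mean of 30 FPKM or more. They summed to 21911 and 24639 FPKM and ran from Itgb3 (101 and 83.2 FPKM) to Car2 (172 and 215 FPKM). The median of the osteoclast markers was close to that of the structural subunits. Neutrophil markers went both ways, with 5 of 8 lower, against 4240 of all 10003 measured genes, and summed to 160 and 156 FPKM. Among the lower ones were S100a8 at 70.2 and 67.0 FPKM and Ngp at 24.5 and 22.0 FPKM. Retnlg had the largest log2 ratio of this list in size, -1.004, but lay near the minimum level, at 1.006 FPKM (WT) and 0 (KO). The 3 higher ones were S100a9 (53.6 and 55.4 FPKM), Ltf (3.47 and 3.66 FPKM) and Camp (3.44 and 4.45 FPKM). Lists for other cells had low sums. For T, NK and B cells the summed level was 7.04 and 6.74 FPKM, of which Cd4 made up 6.77 and 6.27 FPKM. Cd3e and Nkg7 were at 0 in both libraries. The sums were 9.69 and 9.81 FPKM for stromal cells and 2.13 and 3.01 FPKM for dendritic cells. For mast cells, basophils and eosinophils they were 2.24 and 1.44 FPKM (Fcer1a and Tpsb2 at 0 in both). The erythroid and megakaryocyte list summed to 57.7 and 27.5 FPKM, of which Pf4 made up 55.7 and 26.2 FPKM. The part of these shifts in the ratios of complex I and II genes was not tested, and in bulk RNA more cells of a type cannot be told apart from more RNA per cell.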

How the data were processed

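RNA-seq of 2 libraries, 1 per genotype, was used. The deposited values were read as FPKM from the values themselves, since no header or label names the unit: they are not whole, have column sums of 530701 (WT) and 540601 (KO), and the lowest ones shrink with transcript length. Per the submitters' processing notes, TopHat and edgeR were used with mm10, in roles not stated. Quantifier, annotation and scaling are not given in those notes. A constant of 0.000001 on every value was subtracted. Steps between low values put the KO library at 1.40 times the WT depth, with read totals unknown. The members, modules, gene lists and alternatives were chosen with earlier results of these data known. Named genes are the core subunits, complex II, the assembly factors and the 2 list genes farthest from 0 among those at 10 FPKM or more. In each module the highest level and the highest and lowest log2 ratio were also named. Others were named outside this rule, among them Ndufs4, Ndufa11, Ndufab1, Csf1r, Cd68, Acp5, S100a9, Ltf, Camp, Retnlg, Cd4, Ppargc1b, Nrf1 and Gabpa. A few items that the rule takes are counted but not reported here. No test was run: a size of 2-fold on the log2(FPKM + 1) scale took its place, and the 1.1-fold count and the level bands were chosen after the values were seen. Positions, exon overlaps, lengths and GC content (APPRIS principal transcripts) come from GENCODE M21 (mm10); near copies were matches of at least 200 bases at 95% identity by BLAST 2.17.0. The steps were tested on simulated data. Python 3.11.15 was used, with numpy 2.4.6, pandas 2.3.3, statsmodels 0.14.6 (lowess, span 0.3) and matplotlib 3.10.9.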

Additional observations from a re-analysis of the deposited data

How the results depend on the processing

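Alternatives were 2 scalings (a trimmed mean, or the median gene set to 0), other pseudocounts (0.25 and 5), other minimum levels (none and 10 FPKM), removal of length and GC trends, leaving out genes that overlap a named gene, the mean in place of the median, and subsets of members; leaving out genes with a near copy was chosen after the data were seen. The median log2 ratio of the structural subunits moved to 0.1004 with length and GC trends removed, and otherwise ran from 0.1225 to 0.1646. That of the assembly factors ran from 0.1486 to 0.1940. Under trimmed-mean scaling Ndufb3 was at -0.0103 and Ndufs5 at -0.0171, and with centring at -0.0093 and -0.0162; both alternatives lower every ratio by about 0.03. The counts of genes above 0 were 46 of 50 under either scaling and 45 of 50 with trends removed. The share of all measured genes above 0 was not computed under these settings, so these counts have no background beside them. No member passed 1.5-fold. Exons of 15 of the 51 genes overlap a named gene, among them Ndufs1, Ndufs3, Ndufa11, Ndufaf3 and Sdhaf2; without these 15, 34 of 36 were higher. No paired analysis was possible because a genotype has 1 library only, and for the same reason no library could be left out. Read totals are unknown, so no counting error can be given for any member.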
